A study of Mus musculus with 6 samples.

Results

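Wnt proteins are secreted, lipid-modified ligands that bind Frizzled receptors on the cell surface together with co-receptors. In the canonical branch, Lrp5 and Lrp6 pair with a Frizzled, the complex that destroys β-catenin is held back, and β-catenin joins transcription factors of the TCF/LEF family to switch on target genes, several of which feed back on the pathway. In the other branches, Ryk, Ror1 and Ror2 act as co-receptors or receptors in cell polarity and movement. In the developing brain, Wnt signals pattern the tissue and govern the growth of neural precursors, and in glioma they are known for their links to stem-like growth and invasion.

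The genes described here were the rows of the count tables named for a Wnt ligand, a Frizzled receptor, a co-receptor or a secreted antagonist. Rows named for an R-spondin or a feedback or target gene of the pathway were included too. All were chosen by symbol, with earlier results of these data known. They made up 52 of the 23282 gene rows: 19 ligands, 10 Frizzled receptors, 5 co-receptors, 9 secreted antagonists, 2 R-spondins and 7 feedback and target genes. All 6 libraries came from Ink4a/Arf-/- mouse astrocytes, a line that lacks the tumor suppressor locus Ink4a/Arf (Cdkn2a). The cells carried either the empty vector pcDNA3.1-puro (control, n = 3) or pcDNA3.1-JAG1-puro (JAG1-overexpressing, n = 3), a plasmid for JAG1, a membrane-bound ligand of NOTCH receptors. The labels give the control libraries the genotype WT and the others JAG1 overexpression, and the comparison asks which transcripts differ when JAG1 is raised. The labels do not state separate cultures or transfections for the libraries of a group, so that the p-values measure the spread between these libraries, which may be technical.

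QuantSeq libraries were used, in which sequencing starts from the 3' end of a polyadenylated transcript. A transcript gives about the same number of reads whatever its length, and levels of different genes were therefore compared as CPM (reads of a gene per 1e6 normalized reads) without division by length. The control libraries held 20489062, 18889751 and 18952552 reads on genes and the JAG1-overexpressing libraries 20071276, 14341634 and 16442278. A level of 3 reads, taken as the limit of detection for counting error only, equals 0.148 to 0.206 CPM depending on the library.

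Jag1 itself, on chromosome 2, stood at 8.99, 10.8 and 11.2 CPM in the control libraries and at 15.2, 13.6 and 13.8 CPM in the JAG1-overexpressing libraries. The groups did not overlap, and the log2 fold change was 0.46 (SE 0.11, adjusted p = 0.00446, and edgeR's quasi-likelihood test gave this and all later adjusted p-values). The counts do not tell a read of the plasmid from a read of the cell's own gene. The cells were labelled astrocytes, but Gfap and Aqp4, defining markers of mature astrocytes, had 0 reads in all 6 libraries, and the glutamate transporter gene Slc1a3 had at most 2 reads in a library. Of the 10 astrocyte markers, 4 had at most 3 reads in every library. Sox9, a glial transcription factor, was present, at 181 ± 4.64 CPM in control against 18.0 ± 1.25 CPM in JAG1-overexpressing cells (SD, n = 3). Nfia, another glial transcription factor, went the other way, from 3.12 ± 0.693 to 63.9 ± 3.44 CPM (SD, n = 3; log2 fold change 4.35, SE 0.12, adjusted p = 4.27e-10).

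Of the 52 genes, 22 had enough reads to be tested and 30 did not. Among the tested genes, 4 were upregulated and 12 downregulated in JAG1-overexpressing astrocytes, and 6 did not pass an adjusted p of 0.05. Over the whole table of 11712 tested genes, 55.1% passed the same threshold, 27.4% were upregulated and 27.7% downregulated, and the median log2 fold change was 0.00386. Of the 22 genes, 4 had all JAG1-overexpressing libraries above all controls and 12 had them below, where the shares over all tested genes were 31.1% and 30.9%. With a limit of 2-fold beside the adjusted p, 3 genes were higher and 10 lower, and the shares over all tested genes were 5.46% and 8.49%. The filter asked for 3 libraries above its limit. Wnt7b, Lef1, Tcf7, Wnt6, Wnt5a, Fzd9 and Dkk2 met it only through the control libraries, and Lrp5 only through the JAG1-overexpressing ones. A gene that is tested only through its level in 1 group is more likely to be counted as different, so the totals above describe these genes and are no test of the family.

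**Figure D1:**
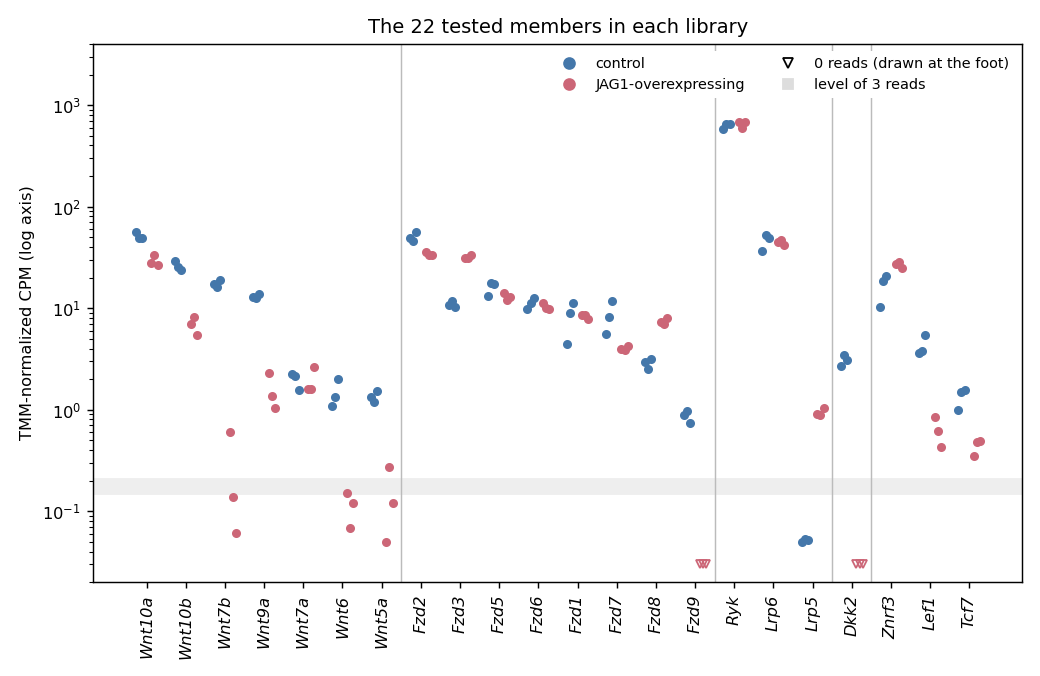
TMM-normalized CPM (log axis) of the 22 tested Wnt ligands, receptors and modulators in each library, 1 point per library, with open triangles for libraries at 0 reads and a grey band for the level of 3 reads in the 6 libraries. Ligands from Wnt10a to Wnt9a, Dkk2, Lef1 and Tcf7 sit lower in the JAG1-overexpressing libraries, Fzd3, Fzd8, Lrp5 and Znrf3 sit higher, and Ryk stands far above the rest in both groups.

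The ligand genes were mostly lower in JAG1-overexpressing astrocytes. Of the 7 ligands tested, 6 were downregulated (Wnt10a, Wnt10b, Wnt7b, Wnt9a, Wnt6 and Wnt5a), and Wnt7a did not pass the threshold, where 27.7% of all tested genes were downregulated. Wnt7b, Wnt6 and Wnt5a were among the genes that could be tested only because of their level in the control libraries. Summed over all 19 ligands, the level was 121, 109 and 111 CPM in the control libraries and 40.1, 45.6 and 36.0 CPM in the JAG1-overexpressing libraries. The mean of the JAG1-overexpressing libraries was 35.7% of the control mean (113.8 ± 6.38 against 40.6 ± 4.78 CPM, SD, n = 3). No library of a group came near the other group. As a log2 ratio the change of the sum was −1.49, and it was −2.47 without Wnt10a. In RNA from whole cultures, fewer cells that express a gene and less RNA per cell cannot be told apart.

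Wnt10a, a canonical ligand known from hair, tooth and fat tissue, was the most abundant ligand in both groups. It lies at chr1:74792019-74804176 (GRCm38). Its level was 56.3, 49.5 and 49.0 CPM in the control libraries and 28.1, 33.4 and 26.5 CPM in the JAG1-overexpressing libraries. The lowest control library lay well above the highest JAG1-overexpressing one, and the log2 fold change was −0.82 (SE 0.10, adjusted p = 2.57e-05). The share of Wnt10a in all ligand reads went from 45.3% to 72.3%.

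Wnt10b, a close relative of Wnt10a that holds back fat cell formation, lies at chr15:98770712-98778206. It had 29.4, 25.5 and 24.0 CPM in the control libraries and 6.93, 8.12 and 5.41 CPM in the JAG1-overexpressing libraries. The groups were far apart, with a log2 fold change of −1.95 (SE 0.14, adjusted p = 4.32e-07). Chromosome 15 as a whole was lower in these libraries: its other 457 tested genes had a median log2 fold change of −0.52, and relative to that median the log2 fold change of Wnt10b was −1.43.

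Wnt7b, a ligand with roles in brain vessels, lung and dendrite growth, showed the largest fitted fall of the ligands. It lies at chr15:85535437-85581821. The control libraries held 17.5, 16.3 and 18.8 CPM, or 354, 303 and 359 reads. The JAG1-overexpressing libraries held 12, 2 and 1 reads. Only the JAG1-overexpressing library of replicate 1 was above the level of 3 reads. The log2 fold change was −5.87 (SE 0.30, adjusted p = 2.91e-08), and it ran from −7.40 without that library to −5.42 with other libraries left out. Relative to the median of chromosome 15 it was −5.35.

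Wnt9a, a ligand known from joint formation and blood stem cell development, lies at chr11:59306849-59333552. It had 12.9, 12.5 and 13.9 CPM in the control libraries and 2.29, 1.38 and 1.03 CPM in the JAG1-overexpressing libraries. The log2 fold change was −3.02 (SE 0.20, adjusted p = 3.28e-07), and the other genes of chromosome 11 had a median of 0.00452.

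Wnt6 and Wnt5a were scarce ligands. In JAG1-overexpressing astrocytes they stood at or below the limit of detection, except for Wnt5a in replicate 2. Wnt6, which acts in early epithelium and neural crest, had 22, 25 and 38 reads in the control libraries and 3, 1 and 2 reads in the JAG1-overexpressing libraries. Its summed level was 12.5-fold higher in control astrocytes (95% exact interval of the counts 5.50 to 34.9, adjusted p = 8.24e-05). Wnt5a, the best known ligand of the branch without β-catenin and a driver of cell movement, had 27, 22 and 29 reads against 1, 4 and 2. It was 9.81-fold higher in control astrocytes (95% exact interval of the counts 4.54 to 25.2, adjusted p = 0.000152). Its log2 fold change of −3.22 became −3.92 without JAG1-overexpressing replicate 2 and ran up to −2.75 with other libraries left out. These intervals cover counting error only.

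Wnt7a, which shares its brain vessel role with Wnt7b, had 2.22, 2.15 and 1.57 CPM in the control libraries and 1.59, 1.58 and 2.61 CPM in the JAG1-overexpressing libraries. The groups overlapped, and the log2 fold change was −0.04 (SE 0.27, adjusted p = 0.908).

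Of the 12 ligands with too few reads, 10 had at most 3 reads in every library. Among those 10, Wnt2, Wnt3, Wnt8a, Wnt9b, Wnt11 and Wnt16 had 0 reads in all 6 libraries, and the classical canonical ligands Wnt1 and Wnt3a had 1 read each over the 6. Wnt2b reached at most 6 reads and Wnt4 at most 7 reads in a library.

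**Figure D2:**
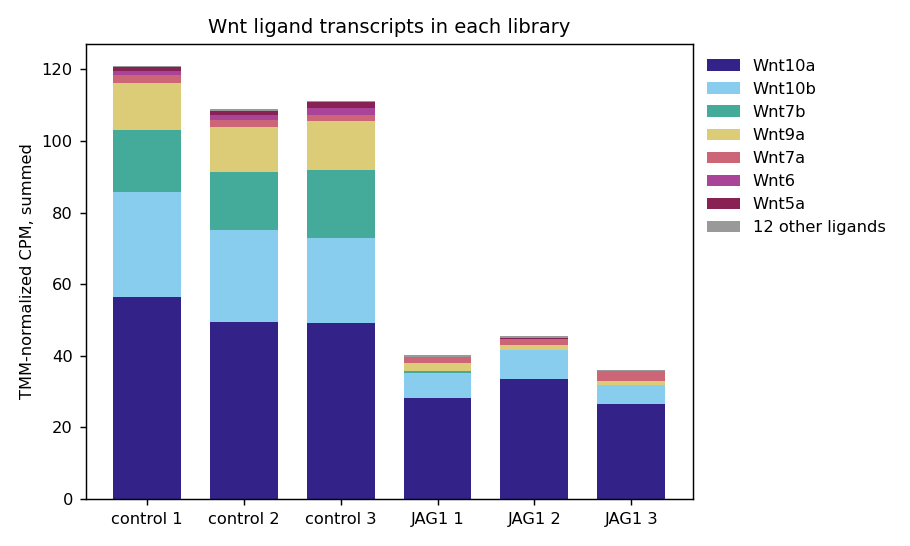
Summed TMM-normalized CPM of the 19 Wnt ligands in each library as stacked bars from 0, with a colour for each of the 7 tested ligands and grey for the 12 others. The control bars reach 109 to 121 CPM and the JAG1-overexpressing bars 36.0 to 45.6 CPM, with Wnt10a as the largest block in every bar and hardly any Wnt7b in the JAG1-overexpressing libraries.

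Some ligand genes are near neighbours in the genome. Wnt6 and Wnt10a lie next to each other on chromosome 1, 6696 bases apart in RefSeq GRCm38.p6 with 0 annotated genes between them. Both fell, although by different amounts. Wnt9a has Wnt3a as its neighbour at 16097 bases and Wnt10b has Wnt1 at 11650 bases, and in each of these pairs the neighbour was not detected in either group. Some genes past the threshold also overlap other annotated genes. Among the ligands these are Wnt7b with AU022754, Wnt10a with Gm32099, Wnt6 with Gm29539 and Wnt9a with Gm51865. Among the others they are Fzd3 with Gm9086 and Gm52141, Lrp5 with Gm36672 and Tcf7 with Skp1. Whether reads were counted by strand is not given in the sources used here.

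Promoter sequences were looked up in the RefSeq table of GRCm38.p6, where 36 of the 52 genes matched, 12 of them among the tested genes. The 250 bases before the outermost start of transcription held there for each gene were searched on both strands. The core of the TCF/LEF site was CTTTGAA and the variant CTTTGAT, besides CTTTGTA and the variant CTTTGTT. The core of the site of RBPJ, the DNA-binding partner of NOTCH, was TGGGAA. For Wnt9a and Wnt10b this start, at chr11:59306930 and chr15:98778150, lay inside the gene bounds given above, so that their windows run into the gene. A TCF/LEF core was found in 3 of the 36 promoters (8.33%) against 14.9% of the 27025 promoters of all genes in the table and 10.2% of the 9316 promoters of tested genes. An RBPJ core was found in 4 of the 36 (11.1%), against 21.5% and 20.2%. Of the 12 promoters of tested genes of the family, 1 held a TCF/LEF core and 1 an RBPJ core (8.33% each). The promoters were rich in G and C, with a median of 67.4% against 52% over all promoters and 60% over those of tested genes. The median of the 12 was 71.4%. The sequences of 4 genes that fell are shown, since they include the 2 abundant ligands found in the table, the transcription factor gene Lef1 and the only promoter of a tested gene in the family with a TCF/LEF core. Capitals mark a matched core, and the sequences run 5′ to 3′ on the strand of the gene up to the base before the start.
Wnt10b, chr15:98778151-98778400, minus strand: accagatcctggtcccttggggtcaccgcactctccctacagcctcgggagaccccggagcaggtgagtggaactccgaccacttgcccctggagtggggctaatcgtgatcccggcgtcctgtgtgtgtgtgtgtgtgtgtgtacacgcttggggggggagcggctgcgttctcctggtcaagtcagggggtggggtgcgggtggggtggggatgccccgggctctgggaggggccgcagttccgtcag
Wnt9a, chr11:59306680-59306929, plus strand: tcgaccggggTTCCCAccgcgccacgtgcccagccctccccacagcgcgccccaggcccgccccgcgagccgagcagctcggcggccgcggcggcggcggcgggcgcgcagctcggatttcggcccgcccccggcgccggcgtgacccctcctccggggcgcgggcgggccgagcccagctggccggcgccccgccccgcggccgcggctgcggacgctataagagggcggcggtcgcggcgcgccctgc
Lef1, chr3:131110047-131110296, plus strand: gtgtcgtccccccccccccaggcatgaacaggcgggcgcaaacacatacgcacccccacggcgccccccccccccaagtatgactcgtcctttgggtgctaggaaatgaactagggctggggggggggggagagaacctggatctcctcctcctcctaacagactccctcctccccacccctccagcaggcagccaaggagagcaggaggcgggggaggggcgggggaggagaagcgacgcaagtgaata
Fzd7, chr1:59481897-59482146, plus strand: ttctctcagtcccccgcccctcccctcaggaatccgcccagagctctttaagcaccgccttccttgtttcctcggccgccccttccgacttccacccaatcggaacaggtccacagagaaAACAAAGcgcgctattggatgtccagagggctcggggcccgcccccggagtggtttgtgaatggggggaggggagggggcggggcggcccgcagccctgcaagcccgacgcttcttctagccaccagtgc
In the promoter of Wnt9a the RBPJ core lay on the other strand (TTCCCA), 240 to 235 bases before the start at chr11:59306930. In that of Fzd7 the TCF/LEF core also lay on the other strand (AACAAAG), 130 to 124 bases before the start. The windows of Wnt10b and Lef1 held neither core. These matches are a description of the letters only.

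Frizzled receptors, the seven-pass membrane proteins that bind Wnt ligands, changed in composition while their sum stayed within the spread of the control libraries. All 10 together had 96.7, 107 and 123 CPM in the control libraries and 113, 106 and 110.4 CPM in the JAG1-overexpressing libraries. Of the 8 that were tested, Fzd3 and Fzd8 were upregulated, Fzd2, Fzd7 and Fzd9 were downregulated, and Fzd1, Fzd5 and Fzd6 did not pass the threshold. Of all tested genes, 55.1% passed it, so that 5 of 8 was near the background.

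Fzd3, a receptor needed for axon tracts and planar cell polarity, rose most of the Frizzleds by log2 fold change. It lies at chr14:65192441-65262463. It had 10.8, 11.7 and 10.4 CPM in the control libraries and 31.1, 31.0 and 33.1 CPM in the JAG1-overexpressing libraries. The values hardly varied within a group, and the log2 fold change was 1.53 (SE 0.08, adjusted p = 6.17e-08). Fzd8, a receptor that binds canonical ligands, had 2.91, 2.52 and 3.14 CPM against 7.38, 6.95 and 7.96 CPM, again without overlap (log2 fold change 1.38, SE 0.15, adjusted p = 1.29e-05).

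Fzd2, which can signal through both branches, was the most abundant Frizzled. It lies at chr11:102604431-102608058. It had 48.8, 46.1 and 55.8 CPM in the control libraries and 35.6, 33.3 and 33.7 CPM in the JAG1-overexpressing libraries, so that the groups did not overlap (log2 fold change −0.55, SE 0.08, adjusted p = 0.000162). Its share of all Frizzled reads went from 46.3% to 31.2%, while that of Fzd3 went from 10.2% to 28.9%. In control astrocytes Fzd2 stood alone at the top, and in JAG1-overexpressing astrocytes Fzd2 and Fzd3 were near each other, at 34.2 ± 1.25 and 31.7 ± 1.20 CPM (SD, n = 3).

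Fzd7, a close relative of Fzd1 and Fzd2 that is known from stem cells, had 5.58, 8.11 and 11.7 CPM in the control libraries and 3.99, 3.85 and 4.25 CPM in the JAG1-overexpressing libraries. The control libraries were widely spread, yet all of them lay above the others. The log2 fold change was −1.07 (SE 0.24, adjusted p = 0.00288) and ran from −1.30 to −0.76 with each library left out in turn. Fzd9, a receptor found in neural precursors and bone, had 18, 18 and 14 reads in the control libraries and 0 in each JAG1-overexpressing library. Set against the level of 3 reads in each of those libraries, it was at least 4.81-fold lower (adjusted p = 0.000174).

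Fzd1, Fzd5 and Fzd6 overlapped between the groups. Fzd1 had 4.39, 8.97 and 11.3 CPM in the control libraries and between 7.84 and 8.57 CPM in the others (log2 fold change 0.02, SE 0.26, adjusted p = 0.958). Fzd5 had a log2 fold change of −0.28 (SE 0.12, adjusted p = 0.0709), and without control replicate 1 it passed the threshold, with −0.41 (adjusted p = 0.00343). Fzd6, an inhibitor of the canonical branch with a role in planar polarity, lies on chromosome 15, and its log2 fold change of −0.11 (SE 0.12, adjusted p = 0.465) stood above the median of −0.53 of the other tested genes there. The other 2 Frizzleds were scarce, with at most 14 reads of Fzd4 and 1 read of Fzd10 in a library.

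**Figure D3:**
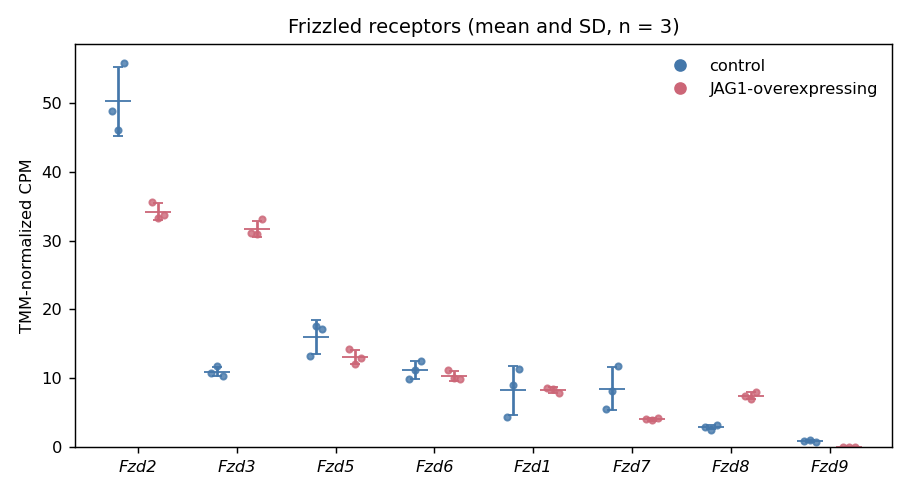
TMM-normalized CPM of the 8 tested Frizzled receptors, with 1 point per library and the mean and SD of the 3 libraries of each group. Fzd2 falls from 50.3 to 34.2 CPM and Fzd3 rises from 11.0 to 31.7 CPM, while the control libraries of Fzd1 and Fzd7 are spread more widely than those of the JAG1-overexpressing group.

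Among the co-receptors, Ryk and Lrp6 did not pass the threshold and Lrp5 was upregulated from a very low level. Over all tested genes, 27.4% were upregulated, and Lrp5 met the filter only through the JAG1-overexpressing libraries. Ryk, an atypical kinase-like receptor for Wnt ligands in axon guidance, was by far the most abundant gene of the family. It had 582, 650.3 and 653 CPM in the control libraries and 674, 598 and 679 CPM in the JAG1-overexpressing libraries. The groups overlapped, and the log2 fold change was 0.05 (SE 0.06, adjusted p = 0.531). Lrp6, a canonical co-receptor, had 36.6, 52.0 and 49.1 CPM against 44.8, 46.6 and 42.1 CPM (log2 fold change −0.04, SE 0.11, adjusted p = 0.764). Control replicate 1 stood below the other control libraries for Lrp6, as it did for Fzd1, Fzd7 and Znrf3.

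Lrp5, the partner of Lrp6 and known for its role in bone mass and retinal vessels, lies at chr19:3584825-3686585. It had 1 read in every control library and 18, 13 and 17 reads in the JAG1-overexpressing libraries. Its summed level was 18.2-fold higher in JAG1-overexpressing astrocytes (95% exact interval of the counts 5.86 to 91.2, adjusted p = 5.82e-05). Even so it stayed at 0.941 ± 0.0790 CPM (SD, n = 3), against 44.5 ± 2.26 CPM for Lrp6 in the same libraries. Chromosome 19 was higher in these libraries as a whole, with a median log2 fold change of 0.61 over its other 421 tested genes. Relative to that median, the log2 fold change of Lrp5 went from 4.01 to 3.41. Ror1 and Ror2, the receptor tyrosine kinases for Wnt5a, had 0 reads in all 6 libraries.

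Secreted antagonists, which bind Wnt ligands or Lrp5 and Lrp6 outside the cell, were scarce. The 9 antagonists together had 3.36, 4.24 and 4.03 CPM in the control libraries and 0.299, 0.413 and 0.182 CPM in the JAG1-overexpressing libraries. Most of the control level was that of Dkk2, a ligand of Lrp6 that can block or weakly activate it, at chr3:132085266-132180304. Dkk2 had 54, 65 and 59 reads in the control libraries and 0 in every JAG1-overexpressing library, so that it was at least 17.2-fold lower (adjusted p = 3.24e-06). Sfrp1, a soluble Frizzled-like protein that traps ligands, had too few reads to pass the filter, with 11, 6 and 10 reads against 0, 1 and 0. In a fit with no filter on low counts it was downregulated (adjusted p = 0.00134). Without overlap between the groups, its summed level was 23.8-fold higher in control astrocytes, with a 95% exact interval of the counts from 3.92 to 973. Dkk3, a divergent relative, reached at most 8 reads and Sfrp4 at most 6 reads in a library. Dkk1, the best known blocker of Lrp6, as well as Frzb, Sfrp2, Sfrp5 and Wif1 had at most 1 read in any library. The R-spondins, which strengthen Wnt signals by clearing Rnf43 and Znrf3 from the cell surface, were not detected either, with 0 reads of Rspo2 in all libraries. Rspo3 had 0, 0 and 1 reads in the control libraries and 2, 1 and 0 reads in the JAG1-overexpressing libraries.

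Of the 3 feedback and target genes tested, Lef1 and Tcf7 were downregulated and Znrf3 was upregulated. Over all tested genes, 27.7% were downregulated and 27.4% upregulated. Lef1 and Tcf7 met the filter only through the control libraries. Lef1, a TCF/LEF transcription factor and itself a target of the pathway, lies at chr3:131110297-131224357. It had 3.60, 3.76 and 5.49 CPM in the control libraries and 0.847, 0.619 and 0.425 CPM in the JAG1-overexpressing libraries. The groups were far apart for a gene of this level (log2 fold change −2.72, SE 0.29, adjusted p = 1.35e-05). Tcf7, its relative, had 20, 28 and 30 reads against 7, 7 and 8 reads, with 1.35 ± 0.319 CPM in control and 0.439 ± 0.0779 CPM in JAG1-overexpressing astrocytes (SD, n = 3). Its log2 fold change was −1.63 (SE 0.35, adjusted p = 0.00231), and the groups did not overlap.

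Znrf3, an E3 ligase that removes Frizzled receptors from the cell surface, had 10.4, 18.6 and 20.9 CPM in the control libraries and 27.2, 28.6 and 24.8 CPM in the JAG1-overexpressing libraries. Control replicate 1 was far below the other control libraries. The log2 fold change of 0.69 (SE 0.19, adjusted p = 0.0105) went down to 0.44 without that library and kept its side of the threshold with each library left out in turn. Axin2, the most widely used readout of canonical signaling, had 4, 5 and 16 reads in the control libraries and 4 in each JAG1-overexpressing library, too few to pass the filter, and it did not pass the threshold in a fit without one (adjusted p = 0.341). The groups overlapped, and no difference was detectable at this depth. Rnf43, the relative of Znrf3, had at most 2 reads in a library, and Nkd1 and Nkd2, inhibitors of Dishevelled, had 0 reads in all 6.

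**Figure D4:**
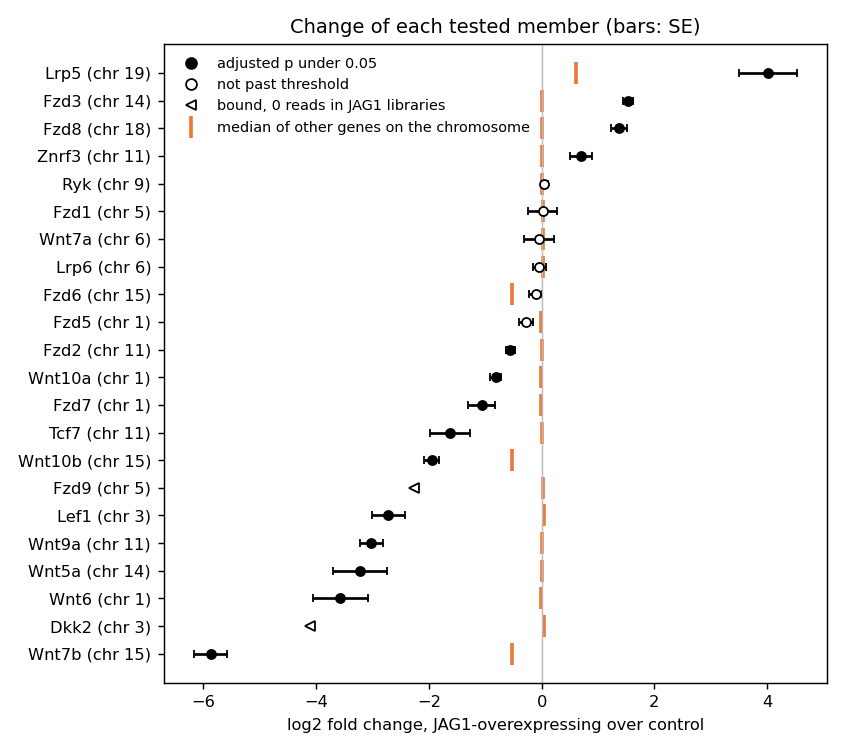
Log2 fold change (JAG1-overexpressing over control) of the 22 tested genes with bars for the SE, filled points for an adjusted p under 0.05, triangles for bounds against 0 reads, and orange marks for the median of the other tested genes on the same chromosome. The marks sit near 0 except on chromosomes 15 and 19, and most of the genes that fell lie on chromosomes whose mark is near 0.

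The chromosome of each gene was set beside its change because chromosomes 15 and 19 stood apart from the rest in these libraries. The medians of the other chromosomes with at least 20 tested genes lay between −0.12 and 0.05. Of the tested Wnt genes, Wnt7b, Wnt10b and Fzd6 lie on chromosome 15 and Lrp5 on chromosome 19. The 18 that lie elsewhere held 3 upregulated and 10 downregulated genes, beside 27.4% and 27.7% of all tested genes, and Lef1, Tcf7, Wnt6, Wnt5a, Fzd9 and Dkk2 among them were tested only through the control libraries. Relative to the median of its chromosome, each of the 16 genes that passed the threshold kept its direction. The part of the shift of these chromosomes in the 4 genes on them was not tested.

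Markers of other cell types were read in the same libraries. Their counts stand beside shares of 27.4% upregulated and 27.7% downregulated over all tested genes, and Dcn, S100b, Aldoc, Stmn2, Cnp and Tmem119, all downregulated, met the filter only through the control libraries, as Cx3cr1 did only through the others. The 8 fibroblast and mural cell markers summed to 818, 828 and 854 CPM in the control libraries and to 352, 361 and 312 CPM in the JAG1-overexpressing libraries. Of these 8 genes, 6 were tested, with 1 upregulated and 5 downregulated, and 2 defining markers (Lum and Rgs5) had 0 reads in all libraries. Acta2, their most abundant gene in control astrocytes, fell from 310.1 ± 6.25 to 39.5 ± 2.49 CPM (SD, n = 3). Col1a1, the most abundant in JAG1-overexpressing astrocytes, had 236 ± 2.56 CPM in control and 164 ± 14.3 CPM there (SD, n = 3), while Col1a2 went the other way, from 3.35 ± 0.528 to 50.7 ± 6.20 CPM (SD, n = 3). The 10 astrocyte markers summed to 313, 336 and 374 CPM against 187, 171 and 183 CPM, with 1 upregulated and 5 downregulated of 6 tested. Sox9 was the most abundant of them in control and Gja1 in JAG1-overexpressing astrocytes (151 ± 35.8 and 96.7 ± 8.65 CPM for Gja1, SD, n = 3). The 7 neuronal markers summed to 100.3, 108 and 109.9 CPM against 59.9, 58.6 and 61.7 CPM, led by Tubb3 in control (78.2 ± 4.67 CPM, SD, n = 3) and by Map2 in JAG1-overexpressing astrocytes (51.3 ± 1.13 CPM, SD, n = 3), with 1 upregulated and 2 downregulated of 3 tested, and Snap25 and Syt1 at 0 reads. The 8 markers of the oligodendrocyte lineage summed to at most 6.82 CPM in a library, the 8 of microglia to at most 4.13 CPM and the 6 of endothelium to at most 0.322 CPM. Pdgfra was the most abundant oligodendrocyte marker in both groups and Pecam1 the most abundant endothelial one, while Tmem119 led the microglial markers in control and Cx3cr1 in JAG1-overexpressing astrocytes. Of 3 oligodendrocyte markers tested 1 fell, and of 2 microglial markers tested 1 rose and 1 fell. Olig1, Sox10 and Mog had 0 reads, as had Tek and Tie1, and no microglial marker was at 0 in all libraries. The part of these shifts in the changes of the Wnt genes was not tested.

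The rest of the pathway was read from a list of 73 further genes written from general knowledge, of which 49 were tested. Of these, 17 were upregulated, 19 were downregulated and 13 did not pass the threshold, with a median log2 fold change of −0.08. Over all tested genes the shares were 27.4% upregulated and 27.7% downregulated. In the secretion step, Porcn, which attaches the lipid to Wnt proteins, had 4.79 ± 1.52 CPM in control and 4.72 ± 1.04 CPM in JAG1-overexpressing astrocytes (SD, n = 3; log2 fold change −0.03, SE 0.23, adjusted p = 0.919). Wls, which carries Wnt proteins to the cell surface, rose by a log2 fold change of 0.15 (SE 0.05, adjusted p = 0.0347), a small change in a well expressed gene.

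Of the receptors for R-spondins, Lgr4 and Lgr6 fell and Lgr5 had too few reads to pass the filter. Lgr4, the main receptor for R-spondins in many tissues, was the most abundant of them, with 2381, 2229 and 2456 reads in the control libraries and 484, 379 and 422 reads in the JAG1-overexpressing libraries. That was 122 ± 5.78 CPM against 25.3 ± 1.02 CPM (SD, n = 3), with groups far apart and a log2 fold change of −2.27 (SE 0.07, adjusted p = 5.28e-10). Lgr6 was lower too, with 35, 25 and 11 reads against 3, 1 and 1 (adjusted p = 0.000576), and Lgr5, a stem cell marker, had 0, 1 and 0 reads against 2, 3 and 0. Lgr4 and Lgr6 were the 2 tested genes of the 5 on this part of the list, where 27.7% of all tested genes were downregulated. Lgr6 met the filter only through the control libraries.

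Of the 25 cytoplasmic genes, 20 were tested, with 6 upregulated and 8 downregulated, where 27.4% and 27.7% of all tested genes were. Of those past the threshold, Tnks2, Frat2 and Frat1 lie on chromosome 19 and Csnk1e and Cby1 on chromosome 15. Relative to the median of its chromosome, Tnks2 went from 0.79 to 0.18 and Frat2 from 0.51 to −0.10. Csnk1e went from −0.66 to −0.13, Cby1 from −0.64 to −0.12 and Frat1 from −2.94 to −3.56. Ctnnb1, which encodes β-catenin, had 883 ± 22.5 CPM in control and 761 ± 11.0 CPM in JAG1-overexpressing astrocytes (SD, n = 3), a small fall without overlap (log2 fold change −0.22, SE 0.05, adjusted p = 0.00201). Within the destruction complex, Axin1, the scaffold, rose by 0.21 (adjusted p = 0.00352), Gsk3b, the kinase, had a log2 fold change of −0.22 (adjusted p = 0.00535), and Apc had −0.10 (adjusted p = 0.263). Among the Dishevelled genes, which relay the signal from Frizzled receptors, Dvl1 rose by 0.52 (adjusted p = 3.78e-05), Dvl2 had −0.08 (adjusted p = 0.297) and Dvl3 had at most 13 reads in a library.

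When only genes above 1 CPM in the mean of the 6 libraries were ranked, Cxxc5, Ctnnbip1 and Fosl1 had the largest rises on the list. Cxxc5, an inhibitor that binds Dishevelled, had 115, 124 and 113 reads in the control libraries and 401, 262 and 349 reads in the JAG1-overexpressing libraries (log2 fold change 1.70, SE 0.11, adjusted p = 2.09e-07). Ctnnbip1, which keeps β-catenin from TCF/LEF factors, went from 299 ± 10.8 to 729 ± 14.9 CPM (SD, n = 3; log2 fold change 1.29, SE 0.05, adjusted p = 3.24e-09). Fosl1, an AP-1 factor and pathway target on chromosome 19, rose by 1.07 (SE 0.07, adjusted p = 1.97e-07), or by 0.46 relative to the median of that chromosome.

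Above the same limit of 1 CPM, Ptk7, Vangl2 and Lgr4 had the largest falls on the list. Ptk7, a kinase-like Wnt co-receptor of planar cell polarity, had 218, 241 and 232 reads in the control libraries and 1, 0 and 1 reads in the JAG1-overexpressing libraries. Its summed level was 304-fold higher in control astrocytes, with a 95% exact interval of the counts from 83.9 to 2517 (adjusted p = 3.72e-09). Vangl2, a core planar polarity gene, had 62, 78 and 81 reads against 19, 9 and 10 (log2 fold change −2.36, SE 0.26, adjusted p = 1.71e-05). Of the 11 planar polarity genes 6 were tested, with 1 upregulated and 4 downregulated, where the shares over all tested genes were 27.4% and 27.7%. Among the latter, Scrib, on chromosome 15, had a log2 fold change of −0.34, or 0.19 relative to the median of that chromosome. Ptk7 here, like Lgr6, Frat1, Apcdd1 and Dact3 elsewhere on the list, met the filter only through the control libraries, and Daam2 only through the JAG1-overexpressing ones.

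Among the nuclear genes, 3 of 8 tested were upregulated and 3 downregulated, again beside 27.4% and 27.7% over all tested genes. Tle4, on chromosome 19, rose by a log2 fold change of 0.77, or by 0.16 relative to the median of that chromosome. Tcf7l2, the most abundant TCF/LEF gene here, had 58.2 ± 3.03 CPM in control and 45.0 ± 3.83 CPM in JAG1-overexpressing astrocytes (SD, n = 3; log2 fold change −0.37, SE 0.08, adjusted p = 0.00178), and relative to the raised median of chromosome 19 its change was −0.98. Tcf7l1, the family member known mainly as a repressor, had 53, 44 and 49 reads against 94, 66 and 57 (log2 fold change 0.75, SE 0.18, adjusted p = 0.00447).

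Of the 10 further target genes, 8 were tested, with 6 upregulated and 1 downregulated, beside the same shares of 27.4% and 27.7% over all tested genes. Ccnd1, the gene of cyclin D1, was the most abundant, with 1570 ± 76.2 CPM in control and 3056 ± 59.4 CPM in JAG1-overexpressing astrocytes (SD, n = 3; log2 fold change 0.96, SE 0.05, adjusted p = 5.15e-08). Myc, on chromosome 15, had 114, 198 and 348 reads in the control libraries and 212, 269 and 218 reads in the JAG1-overexpressing libraries, with overlap (log2 fold change 0.29, SE 0.33, adjusted p = 0.485, and 0.82 relative to the median of that chromosome). Ccn4, a matricellular target also on chromosome 15, was the gene that fell, from 249 ± 4.91 to 137 ± 1.76 CPM (SD, n = 3), with a log2 fold change of −0.86 and of −0.34 relative to the median of its chromosome. These target genes respond to several other pathways as well.

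**Figure D5:**
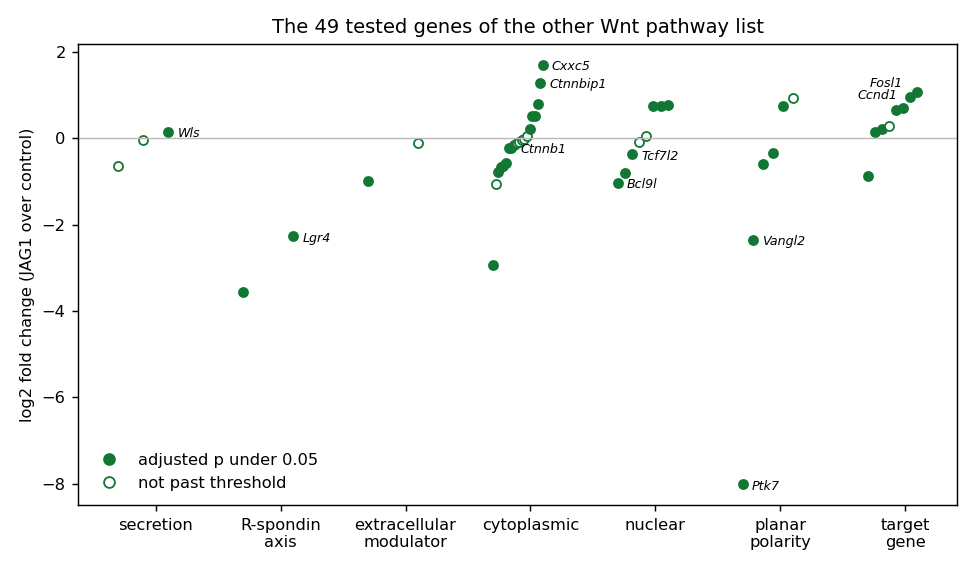
Log2 fold change (JAG1-overexpressing over control) of the 49 tested genes of the further pathway list, 1 point per gene, grouped by step, with filled points for an adjusted p under 0.05. Most points lie within 1 of 0 on the log2 scale, Cxxc5, Ctnnbip1 and Fosl1 lie above, and Ptk7, Lgr6, Frat1, Vangl2 and Lgr4 lie far below.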

How the data were processed

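RNA of 3 control and 3 JAG1-overexpressing libraries was sequenced from QuantSeq 3' libraries. The authors deposited, per library, raw read counts and normalized values on a log2 scale for 23282 gene rows. The submitters' processing notes name Bowtie2, bedtools and edgeR and the build GRCm38 (mm10); annotation, strand setting and normalization are not given in the sources used here. The raw counts were used, and the deposited log2 values only in an alternative.

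The members and lists were chosen with earlier results of these data known. Symbols were matched to RefSeq GRCm38.p6 (22059 by symbol, 1071 by synonym, 152 by neither; 52 of 52 members). In R 4.3.3, edgeR 4.0.16 was run on the whole table (filterByExpr with a minimum count of 10, which left 11712 genes, TMM, quasi-likelihood test, Benjamini-Hochberg adjustment, threshold 0.05). The SE was derived from the F statistic. Folds against 0 reads used 3 reads per library; exact binomial intervals were used for few reads. The test was checked on simulated data. Named genes were the members past the threshold with a log2 fold change of at least 1 in size. The most abundant gene of each role and a fixed set of pathway genes were named too. The 3 largest rises and falls of the pathway list above a mean of 1 CPM were added. Other members were given more briefly. Lgr5, Lgr6, Frat1 and Ccn4 were named after their values were seen, as were Tnks2, Frat2, Csnk1e, Cby1, Scrib and Tle4. The alternatives used DESeq2 1.42.0, limma 3.58.1, other scalings, filters and fold limits, a replicate block and leaving out each library. No pair of libraries was a copy: the chi-square per degree of freedom was at least 3.82.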

Additional observations from a re-analysis of the deposited data

How the results depend on the processing

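With DESeq2, limma-voom, limma on the deposited log2 values, library size alone and the replicate block, the 22 tested genes of the family kept their direction and their side of the threshold, with 4 higher and 12 lower. In the whole table, 639 genes were higher and 994 lower with a limit of 2-fold, and 1395 and 1711 with 1.5-fold; of the other pathway genes, 3 were higher and 6 lower with 2-fold, and 11 were higher and 13 lower with 1.5-fold. With each library left out, 4 to 5 genes of the family were higher and 12 to 14 lower (Fzd4, below the filter with all libraries, was higher without control replicate 3), 13 to 16 other pathway genes were higher and 18 to 20 lower, and 2724 to 3256 genes of the whole table were higher and 2792 to 3344 lower. The log2 ratio of the summed CPM without the most abundant gene was −2.47 for ligands, 0.36 for Frizzled receptors and −1.42 for antagonists. With all genes these ratios were −1.49, 0.0083 and −3.70. The antagonist value without Dkk2 rests on few reads, since Dkk2 held 178 of the 224 control reads and the JAG1-overexpressing libraries held 15. For feedback and target genes the ratio reversed from 0.31 to −2.22 without Znrf3, with Lef1 then the most abundant gene. Of the 6 tested genes not past the threshold, 4 changed sign with single libraries left out, which gave log2 fold changes of −0.29 to 0.32 for Fzd1, −0.18 to 0.055 for Lrp6, −0.0026 to 0.11 for Ryk and −0.31 to 0.097 for Wnt7a; Fzd1 was also −0.00494 with upper-quartile scaling. Fzd5 passed the threshold with upper-quartile scaling, without a filter and without control replicate 1, and Lrp6 without control replicate 1; the cause was not tested.

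The replicate numbers are shared between the groups, and the labels do not say whether they pair the libraries. The correlation of same-numbered libraries' deviations was 0.148, 0.061 and 0.119, each library correlating best with its own number. Libraries of different numbers had −0.144 to 0.011. Whether libraries of a number share a batch was not tested. With the replicate block, 3380 genes were higher and 3331 lower in the whole table, and 17 and 20 of the other pathway genes. At this depth, genes with under 10 reads in most libraries, among them Axin2 and most antagonists, did not pass the filter. With no filter, 40 genes of the family were tested, with 4 higher and 14 lower, Sfrp1 among the latter. With a filter on a mean of 10 counts, 20 were tested, with 3 higher and 11 lower, since Lrp5 and Fzd9 were left out.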
